A study of Rattus norvegicus with 6 samples.

Results

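This report describes 34 complement, coagulation and acute phase genes in the renal cortex of rats given 2-amino-4-nitrophenol, an aromatic amine and dye component. The genes were chosen by name. Each was measured through array probes whose annotated RefSeq transcript belongs to it, and the probe with the highest mean signal stood for the gene. Such a probe was found for 30 of the 34, and 29 passed the filter on dim probes, out of 11748 genes tested in all. Cd59 is listed in the RefSeq table under the symbol Cd59b and is called so here. C4b, C5, C7 and F5 were not analysed here.

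Male Sprague-Dawley rats, 5 weeks old at purchase, received either corn oil (3 rats, the vehicle group) or 2-amino-4-nitrophenol at 750 mg/kg/day (3 rats, called treated below), each for 4 weeks. Total RNA of the renal cortex of each rat was hybridised to 1 single-colour Agilent array. The question was which transcripts differ between the groups. With whole cortex, more cells of a type and more RNA per cell cannot be told apart.

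Complement is a cascade of plasma proteases. The classical pathway acts through C1r and C1s. It shares C2 and C4 with the lectin pathway, and the alternative pathway acts through factors B, D and properdin. All of them cleave C3 and lead to a pore made of the terminal components. Regulators on cells and in plasma hold it in check. Coagulation starts when tissue factor meets plasma factors and ends in fibrin, made from the fibrinogen chains, while plasminogen activators dissolve it. Acute phase proteins such as haptoglobin are secreted mostly by the liver under interleukin-6, and tubular cells of the kidney can make several of these proteins themselves.

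The processed signal of the arrays had a 75th percentile between 564 and 852, and 61.6% to 70.9% of the 61657 non-control probes were well above background. Corn oil replicate 2 was the sole array of its slide, and the other 5 arrays shared a slide. Leaving out that array is therefore the same check as a slide block. On the shared slide the corn oil arrays lay in row 1 and the treated arrays in row 2. Row and treatment can therefore not be told apart in that check. The 7 proximal tubule markers examined were well above background on all 6 arrays, with summed levels of 1150 to 1250 times the 75th percentile on corn oil arrays and 1200 to 1260 on treated arrays. A level below is the log2 of a probe's signal over the 75th percentile of its own array, and a log2 change is the treated mean minus the corn oil mean of those levels. Levels of different probes are not compared with each other.

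No gene of the list passed the test. Of the 29 tested, 0 passed the threshold of 0.05 on the adjusted p (limma, adjusted over all genes tested), where 3 of 11748 genes (0.0255%) passed in the whole table, and the lowest adjusted p was 0.116, for C4a. With an unadjusted p under 0.05, 3 genes were higher on treated arrays (C6, Tfpi and Cd59b, 10.3% of the 29 against 14.3% of all genes) and 2 lower (C4a and F8, 6.9% against 7.29%). All treated arrays lay above all corn oil arrays for 5 genes (17.2% against 20.1%), and below them for 3 (10.3% against 10.1%). These shares are near those of the whole table and so are no result about the list. The median log2 change was 0.085 over the 29 genes and 0.044 over all genes tested, with 21 changes above 0 (72.4%, against 57.4% of all genes) and 8 below. Scaling on spike-in controls shifted the median of all genes by -0.32, to -0.28, and left 5 changes above 0, so the sign of a change between 0 and about that size depends on the scaling. For C2, C4a, C6, Cd59b and Tfpi no single left-out array moved the change by over 1.5 times; for the other 24 genes at least 1 did, and for Cd55, Cfi, F3, Fga, Hpx, Plaur and Thbd it turned the sign.

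**Figure D1:**
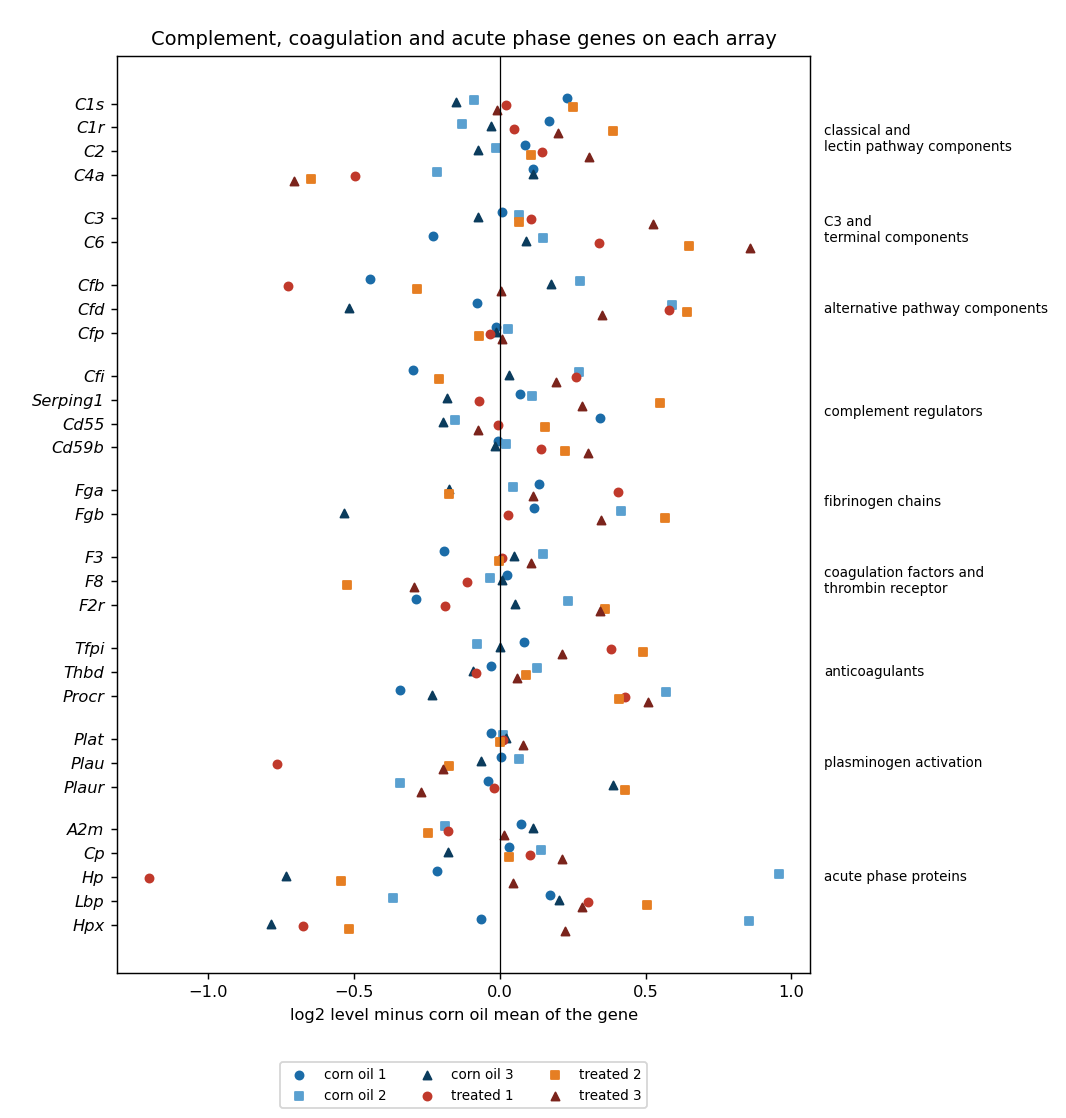
Level of each of the 29 tested genes on each of the 6 arrays, as the log2 difference from the mean of the 3 corn oil arrays (x axis), with genes grouped by role (y axis); blue points are corn oil arrays and red to orange points treated arrays. C4a lies to the left and C6 to the right on all 3 treated arrays, while Hp and Hpx are spread over more than 1 log2 unit within the corn oil group.

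**Figure D2:**
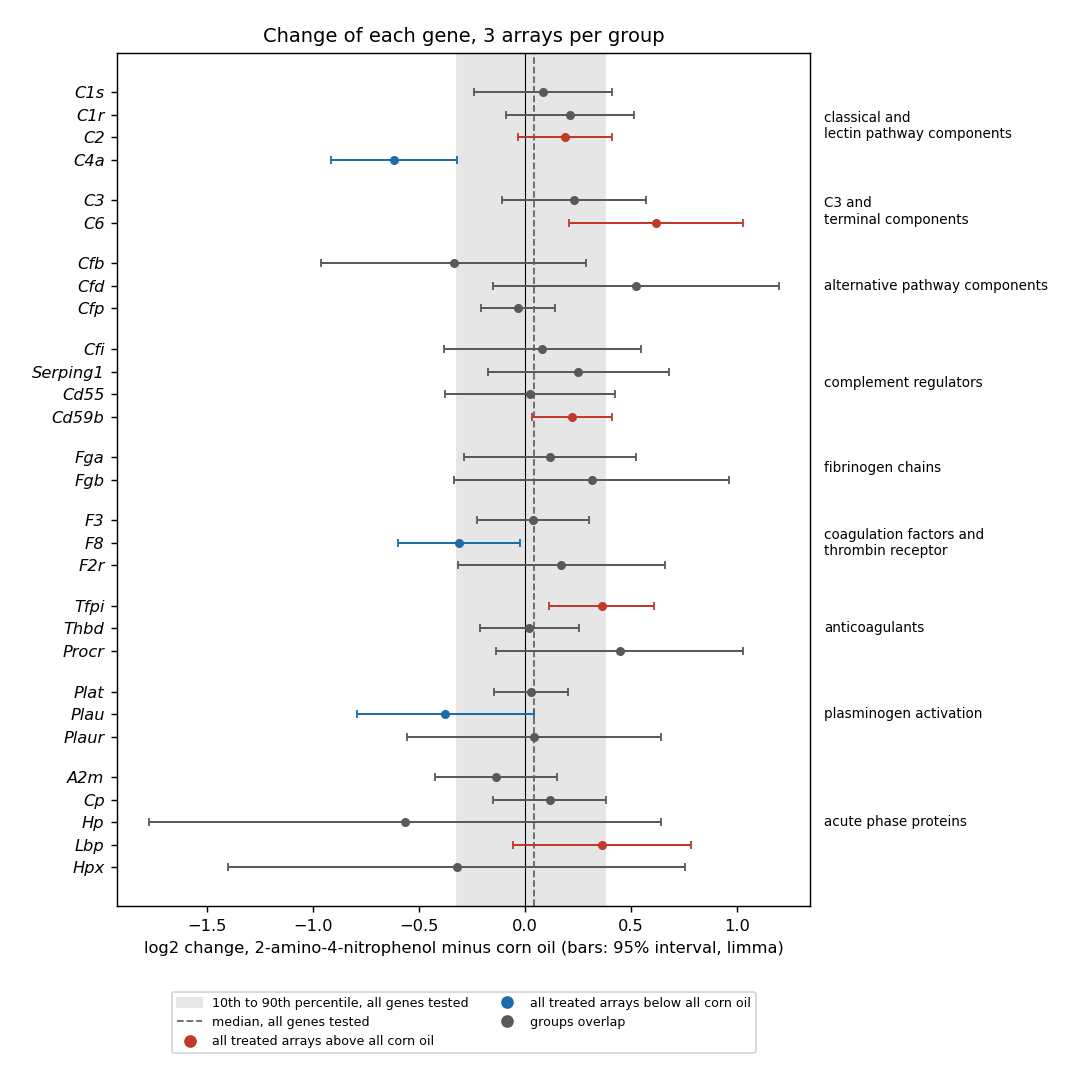
Log2 change of each tested gene (x axis, points) with its 95% interval from limma (bars), genes grouped by role (y axis). The grey band runs from the 10th to the 90th percentile of all 11748 genes, -0.32 to 0.38, and the dashed line is their median of 0.044; C4a and C6 lie outside the band on opposite sides.

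C4a was the gene with the lowest p of the list, and it was lower on the treated arrays. It encodes complement component 4, whose cleaved form joins C2 in the enzyme that cuts C3. Its levels were 4.54, 4.21 and 4.54 on corn oil replicates 1, 2 and 3 and 3.93, 3.78 and 3.72 on treated replicates 1, 2 and 3, so the groups did not overlap. The log2 change was -0.62 ± 0.12 (SE, n = 3 per group), a level 1.54-fold lower, with an adjusted p of 0.116 in limma. A dimmer probe of C4a moved the same way, from 0.69, 0.30 and 0.68 to -0.13, -0.42 and -0.42, a difference of -0.88. The change stayed below 0 in all 17 alternatives, from -0.94 with spike-in scaling to -0.56 without corn oil replicate 1.

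The rat has a second, closely similar gene, C4b, and whether the C4a probes also bind its transcript was not tested. In the windows of 250 bases before the starts of both genes (RefSeq, GRCr8), 230 of 259 aligned columns were identical, 88.8%. These windows lie outside the transcripts, so the value says nothing on what the probes bind. Capitals mark the E-box CACGTG, searched on both strands, which read the same; C4a is at chr20:4010107-4010356 and C4b at chr20:4201729-4201978, both on the + strand.
C4a: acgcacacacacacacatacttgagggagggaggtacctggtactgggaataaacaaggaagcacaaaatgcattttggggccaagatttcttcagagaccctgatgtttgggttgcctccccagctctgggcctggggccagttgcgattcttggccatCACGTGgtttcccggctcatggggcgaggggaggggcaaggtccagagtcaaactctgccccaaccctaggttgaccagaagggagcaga
C4b: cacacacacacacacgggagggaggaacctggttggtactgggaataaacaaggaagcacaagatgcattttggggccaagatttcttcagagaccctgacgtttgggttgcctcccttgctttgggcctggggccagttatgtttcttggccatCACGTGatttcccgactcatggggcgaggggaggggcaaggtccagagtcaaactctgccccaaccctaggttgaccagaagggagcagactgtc
The E-box lay 90 to 85 bases before the start of C4a and 95 to 90 before that of C4b. It was found in these 2 of the 21 listed genes that have a window, and in 5.79% of all 27457 windows. The match is a description of the letters and no site.

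The other genes of the classical and lectin pathways had small changes above 0, which were below 0 with spike-in scaling. C2, the partner of C4 in the convertase, had levels of -1.55, -1.65 and -1.71 on corn oil arrays and -1.49, -1.53 and -1.33 on treated arrays. The treated arrays were all above the corn oil arrays, by little at the nearest pair, and the log2 change was 0.19 ± 0.09 (limma adjusted p = 0.284). The proteases C1r (0.21 ± 0.13, adjusted p = 0.358) and C1s (0.09 ± 0.13, adjusted p = 0.733), which neighbour each other on chromosome 4 in the RefSeq table, had overlapping groups. The summed level of the pathway's 4 measured genes, most of it from C4a, was 23.1 to 29.0 on corn oil and 18.7 to 20.4 on treated arrays.

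C6 had the highest log2 change of the list. It encodes a terminal component that joins the membrane pore. Its levels were -2.45, -2.07 and -2.13 on corn oil arrays and -1.88, -1.57 and -1.36 on treated arrays. The groups did not overlap, and the log2 change was 0.62 ± 0.17, or 1.53-fold (limma adjusted p = 0.144). It stayed above 0 in all 17 alternatives, from 0.30 with spike-in scaling to 0.76 without treated replicate 1. C3, on which all pathways converge, had levels of 0.47, 0.53 and 0.39 on corn oil arrays and 0.57, 0.53 and 0.99 on treated arrays. Treated replicate 3 lay above the other 5 arrays, and the log2 change of 0.23 ± 0.14 (adjusted p = 0.369) was 0.085 without that array.

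The window before C6 (GRCr8, chr2:55573383-55573632, + strand) is shown because C6 had the highest change. Capitals mark TTNNGCAA, a C/EBP-type motif, 176 to 169 bases before the start.
C6: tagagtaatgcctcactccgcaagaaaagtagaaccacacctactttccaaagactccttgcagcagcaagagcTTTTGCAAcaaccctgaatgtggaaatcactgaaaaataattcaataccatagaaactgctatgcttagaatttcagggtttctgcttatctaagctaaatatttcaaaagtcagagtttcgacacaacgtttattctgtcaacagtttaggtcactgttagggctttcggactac
That motif, searched on both strands, was found in 8 of the 21 windows (Plaur, Hpx, C6, Cp, Fga, Fgb, C1r and C3) and in 9.2% of all windows. Among these 8 genes the log2 changes ran from -0.32 for Hpx to 0.62 for C6.

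**Figure D3:**
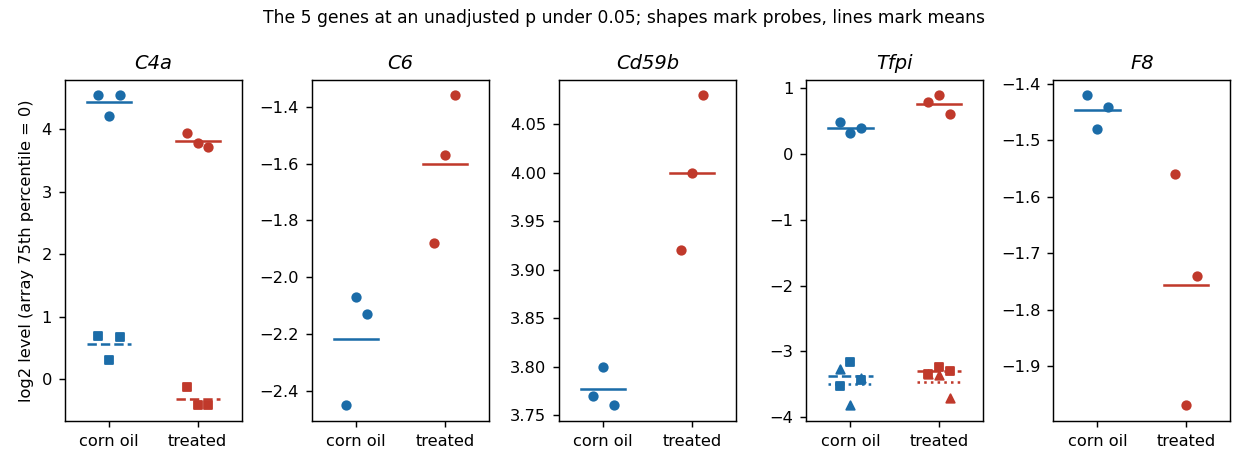
Log2 level, relative to the array's 75th percentile (y axis, a separate range for each gene), on the 3 corn oil (blue) and 3 treated arrays (red) for the 5 genes at an unadjusted p under 0.05. Point shapes and line styles mark the probes of a gene, and lines are means of 3; both C4a probes are lower on treated arrays, and of the 3 Tfpi probes the brightest alone has separated groups.

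In the alternative pathway, Cfd and Cfb differed in sign and both varied widely among corn oil rats. Cfd, the protease factor D, which fat cells secrete, had levels of -2.83, -2.16 and -3.27 on corn oil arrays and -2.17, -2.11 and -2.40 on treated arrays. Corn oil replicate 2 lay within the range of the treated arrays, and the log2 change was 0.52 ± 0.28 (limma adjusted p = 0.318). With 1 array left out the change ran from 0.26, without corn oil replicate 3, to 0.82, without corn oil replicate 2. Cfb, the catalytic factor B, had levels of -0.67, 0.05 and -0.05 on corn oil and -0.95, -0.51 and -0.22 on treated arrays, with a log2 change of -0.34 ± 0.26 (adjusted p = 0.471) and -0.14 without treated replicate 1 to -0.56 without corn oil replicate 1. Cfp, properdin, which steadies the alternative convertase, lay between -1.94 and -1.84 on all 6 arrays, with a log2 change of -0.03 (95% interval -0.21 to 0.14).

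Beside Cfd stand the fat cell markers. Of 6 on the list 5 had a probe and 3 were well above background on all 6 arrays. Their summed level was 1.23 to 1.46 on corn oil and 1.84 to 2.06 on treated arrays, with Cidec at a log2 change of 1.485 ± 0.40 (limma adjusted p = 0.144), Adipoq at 0.16 ± 0.28 (adjusted p = 0.757), and Lep well above background on 1 treated array and no corn oil array. Fabp4 had a log2 change of 0.51 ± 0.58 (limma adjusted p = 0.631) and Retn of 0.009 ± 1.18. Retn was well above background on 3 corn oil arrays and 1 treated array, the opposite of Lep. Of the 4 tested, 1 (Cidec) had separated groups. Their part in the Cfd values was not tested.

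Among the complement regulators, Cd59b had the tightest groups. It encodes the membrane protein that blocks assembly of the pore. Its levels were 3.77, 3.80 and 3.76 on corn oil arrays and 3.92, 4.0 and 4.08 on treated arrays. The groups did not overlap, and the log2 change was 0.22 ± 0.08, or 1.17-fold (limma adjusted p = 0.190). It was 0.06 after quantile normalization and -0.10 with spike-in scaling. Serping1, the inhibitor of C1r and C1s, was at 4.20, 4.24 and 3.95 on corn oil arrays and 4.06, 4.68 and 4.41 on treated arrays, with a log2 change of 0.25 ± 0.18 (adjusted p = 0.435) from overlapping groups. It ran from 0.102 without treated replicate 2 to 0.414 without treated replicate 1. Cfi, the protease that inactivates C3b and C4b, had 0.08 ± 0.19, and Cd55, which speeds the decay of the convertases, had 0.02 ± 0.17 (95% interval -0.38 to 0.42).

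The fibrinogen chains had overlapping groups. Fgb, the beta chain, had levels of -0.28, 0.02 and -0.93 on corn oil arrays and -0.37, 0.17 and -0.05 on treated arrays. Corn oil replicate 3 was the lowest of the 6, and the log2 change was 0.31 ± 0.27 (limma adjusted p = 0.518). It was 0.045 without that array and 0.52 without corn oil replicate 2. Fga, the alpha chain, had 0.12 ± 0.17 (adjusted p = 0.710), with -0.027 without treated replicate 1 and 0.26 without treated replicate 2. Fgg, the gamma chain, was well above background on 2 corn oil arrays and 1 treated array, so it was not tested. The 3 genes lie next to one another on chromosome 2 in the RefSeq table.

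The window before Fgb (GRCr8, chr2:170700876-170701125, - strand) is shown for CTGGGAA, a motif of acute phase promoters, in capitals 152 to 146 bases before the start.
Fgb: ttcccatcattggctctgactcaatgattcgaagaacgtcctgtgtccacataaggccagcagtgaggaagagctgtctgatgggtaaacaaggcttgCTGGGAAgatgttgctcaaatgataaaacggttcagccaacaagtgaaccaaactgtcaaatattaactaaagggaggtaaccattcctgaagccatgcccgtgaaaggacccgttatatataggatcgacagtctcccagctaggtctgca
On either strand this motif was found in 6 of the 21 windows (Fgg, Fgb, C1r, C3, C4a and C4b) and in 9.33% of all windows. The 4 tested genes among them had log2 changes of 0.31 (Fgb), 0.21 (C1r), 0.23 (C3) and -0.62 (C4a). TTCNNNGAA, a STAT-type motif, was found in the windows of Fga and Fgb and in 7.52% of all windows.

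Of the coagulation factors and the thrombin receptor, F8 was lower on treated arrays. F8 encodes factor VIII, the cofactor that speeds activation of factor X and that endothelial cells make. Its levels were -1.42, -1.48 and -1.44 on corn oil arrays and -1.56, -1.97 and -1.74 on treated arrays. The groups did not overlap, and the log2 change was -0.31 ± 0.12, a level 1.24-fold lower (limma adjusted p = 0.2085). It stayed below 0 in all 17 alternatives, from -0.63 with spike-in scaling to -0.185 after normexp background correction. F3, tissue factor, which starts coagulation, lay between 3.82 and 4.16 on all 6 arrays, with a log2 change of 0.04 (95% interval -0.23 to 0.30). F2r, the thrombin receptor, had 0.17 ± 0.20 (adjusted p = 0.643).

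Among the anticoagulants Tfpi stood apart from the corn oil arrays. Tfpi encodes the inhibitor of the tissue factor complex. Its levels were 0.48, 0.32 and 0.40 on corn oil arrays and 0.78, 0.89 and 0.61 on treated arrays. The groups did not overlap, and the log2 change was 0.36 ± 0.10, or 1.285-fold (limma adjusted p = 0.149). It stayed above 0 in all 17 alternatives, and was 0.04 with spike-in scaling and 0.16 as the mean over its probes. The array holds 3 Tfpi probes for 2 RefSeq transcripts. The probe above belongs to one of them, and the 2 dimmer probes, both of the other transcript, gave 0.08 and 0.03 with overlapping groups, so the difference was seen with 1 transcript's probe.

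The other anticoagulants are receptors of the protein C pathway on endothelial cells. Procr, the protein C receptor, had levels of -2.64, -1.73 and -2.53 on corn oil arrays and -1.87, -1.89 and -1.79 on treated arrays. Corn oil replicate 2 was the highest of all 6, and the log2 change was 0.45 ± 0.24 (adjusted p = 0.322 in limma), or 0.73 without that array and 0.28 without corn oil replicate 1. Thbd, thrombomodulin, which turns thrombin towards protein C, lay between 1.73 and 1.95 on all 6 arrays, with a log2 change of 0.02 (95% interval -0.21 to 0.26). Its dimmer probe disagreed, from -3.54, -3.31 and -3.81 on corn oil arrays to -4.15, -3.97 and -3.96 on treated arrays, a difference of -0.475 without overlap. The 6 endothelial markers with a probe were well above background on all arrays and summed to 34.4 to 36.4 on corn oil and 34.3 to 34.9 on treated arrays. Pecam1 had a log2 change of 0.06 ± 0.08 and Tek of -0.44 ± 0.08 (adjusted p = 0.101).

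In plasminogen activation, Plau was lower on treated arrays, mostly through 1 animal. Plau encodes urokinase, which tubular cells release into urine. Its levels were 3.45, 3.51 and 3.38 on corn oil arrays and 2.68, 3.27 and 3.25 on treated arrays. The groups did not overlap, and treated replicate 1 lay well below the rest. The log2 change was -0.38 ± 0.17 (limma adjusted p = 0.264), and it was -0.184 without treated replicate 1. Plat, tissue plasminogen activator, lay between 3.77 and 3.88 on all 6 arrays, with a log2 change of 0.03 (95% interval -0.145 to 0.205), and its dimmer probe gave -0.185 with the treated arrays all lower. Plaur, the urokinase receptor, had 0.04 ± 0.25, with -0.184 from the other probe.

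Of the 5 acute phase genes, Hp and Hpx varied most among rats of a group. Hp encodes haptoglobin, which binds free hemoglobin. Its levels were -0.98, 0.19 and -1.50 on corn oil arrays and -1.97, -1.31 and -0.72 on treated arrays. The corn oil arrays alone spanned 1.69 log2 units, and the log2 change of -0.57 ± 0.50 (limma adjusted p = 0.533) was -0.09 without corn oil replicate 2, -0.25 without treated replicate 1 and -0.93 without corn oil replicate 3. Hpx encodes hemopexin, which binds free heme. Its levels were -3.68, -2.76 and -4.40 on corn oil arrays and -4.29, -4.13 and -3.39 on treated arrays. The log2 change was -0.32 ± 0.445 (adjusted p = 0.698), and it was 0.10 without corn oil replicate 2. In both, corn oil replicate 2 was the highest and replicate 3 the lowest corn oil array, and treated replicate 1 was the lowest treated array. Of the 29 tested genes 7 had that order. The corn oil range was 1.69 log2 units for Hp, 1.64 for Hpx and 0.95 for Fgb. It was smaller for Serping1, Thbd, Plau and Cd59b (0.29, 0.22, 0.13 and 0.04). A2m, Cp, Lbp and Fga did not have the order. Of the other pathway genes tested, Serpina3n, Serpina1, Vtn, Saa4, F12 and Plg had it, with ranges of 2.46, 1.83, 1.7, 1.31, 1.11 and 0.15. Klkb1, Fcnb, Kng1, Kng2, Itih4, Mbl1 and Itih3 did not, with ranges of 2.64, 1.7, 1.67, 1.51, 1.36, 1.18 and 1.04. Corn oil replicate 2 was the highest corn oil array for 17 of the 29. The shares of all genes were not computed for the order or for that count.

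Several liver-type transcripts were also highest, among corn oil arrays, in replicate 2. That array was alone on its slide, so the rat and the slide cannot be told apart. Of the 7 hepatocyte markers tested, 6 had their highest corn oil level in replicate 2, though Cyp2c11 only at -2.21 against -2.23 in replicate 3. The share of all genes was not computed. All 7 had log2 changes below 0 (median -0.272), against 5007 of all 11748 genes. Groups were separated for 2, Ahsg and Cyp2c11, against 10.1% of all genes. Cyp2c11 had -2.45 ± 0.66 (limma adjusted p = 0.143), but passed the filter on dim probes through its corn oil arrays alone. Alb, albumin, had levels of 0.81, 2.24 and -0.34 on corn oil arrays and -1.09, 0.91 and 1.62 on treated arrays. Ttr, transthyretin, had 0.21, 1.26 and -1.31 on corn oil and -2.28, 0.71 and 1.15 on treated arrays. Both were high in corn oil replicate 2 and low in corn oil replicate 3 and treated replicate 1, as Hp was, although on treated replicates 2 and 3 they lay above their levels on corn oil replicate 1. The summed level of the 8 markers with a probe was 3.36 to 9.28 on corn oil and 1.96 to 6.44 on treated arrays, with 6 well above background on all arrays and Cps1 on none. Their part in the Hp and Hpx values was not tested.

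**Figure D4:**
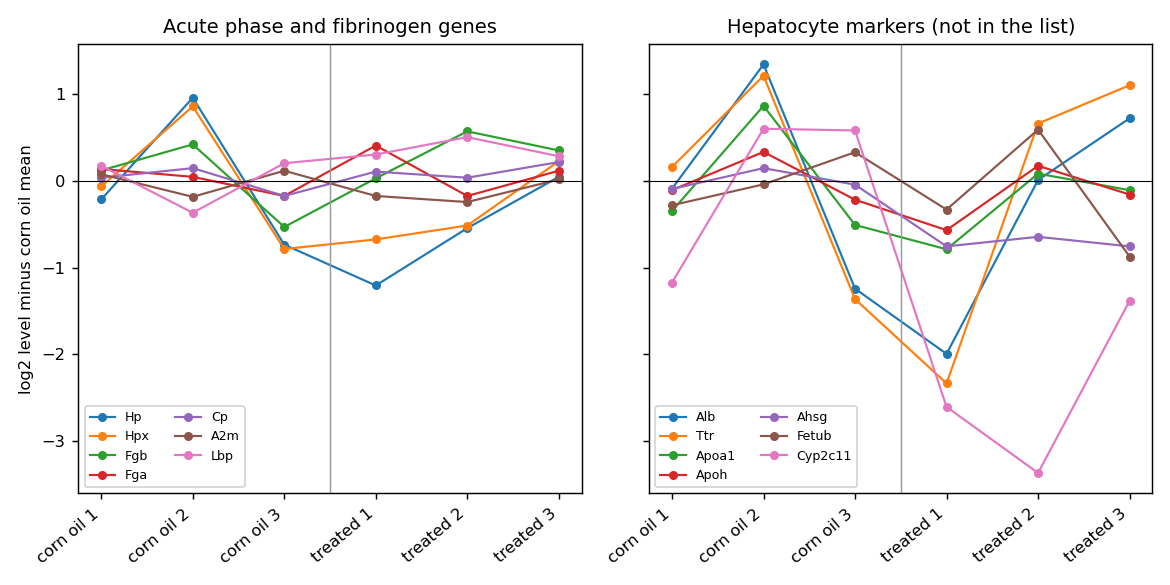
Log2 level on each array (x axis) minus the corn oil mean of the gene (y axis) for 7 acute phase and fibrinogen genes (left) and 7 hepatocyte markers (right); lines join the points of a gene and imply no order of animals. Hp, Hpx, Alb and Ttr are high in corn oil replicate 2 and low in corn oil replicate 3 and treated replicate 1.

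The remaining acute phase genes varied less. Lbp, which carries lipopolysaccharide to its receptor, had levels of -3.66, -4.20 and -3.63 on corn oil arrays and -3.53, -3.33 and -3.55 on treated arrays. The treated arrays were all above the corn oil arrays, with corn oil replicate 2 the lowest, and the log2 change was 0.36 ± 0.17 (adjusted p = 0.278 in limma), or 0.179 without that array. Cp, ceruloplasmin, the copper-carrying ferroxidase, had 0.12 ± 0.11 from its brightest probe and -0.03 to 0.12 over its 4 probes. A2m, alpha-2-macroglobulin, a protease trap that is a major acute phase protein of the rat, had -0.14 ± 0.12 (adjusted p = 0.524), and its other 2 probes were not well above background on any array.

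Of the 29 tested genes 14 had several kept probes, and in 10 of these the probes had changes of 1 sign. The probes of Thbd, Plat, Plaur and Cp differed in sign. The spread between rats was moderate for most genes: the median range was 0.33 log2 units over the 3 corn oil arrays and 0.29 over the 3 treated arrays, against 0.20 and 0.32 for all genes tested. Cfd, Hp and Hpx had ranges over 1 log2 unit among corn oil arrays, and Hp had one among treated arrays.

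Other genes of these pathways, 81 in all, were read from the same fit. Of them 55 were tested, 0 passed the threshold, and with an unadjusted p under 0.05 3 were higher (5.45%, against 14.3% of all genes) and 5 lower (9.09% against 7.29%). In the complement list the 3 lowest p were those of C5ar2, Clu and C8b. C5ar2, a receptor of the C5a fragment, was well above background on 3 corn oil arrays and no treated array, with mean levels of -5.05 and -5.87. It passed the filter on dim probes through its corn oil arrays alone, and the treated arrays were dimmer as a whole. Its adjusted p of 0.0977 in limma is therefore no support for a fall. With each treated level set no lower than the dimmest signal well above background on its array, the means differed by 1.31-fold. That limit was taken over all probes and not for this one, so 1.31-fold is no lower bound for C5ar2. Clu, clusterin, which blocks the pore in plasma, differed by -0.61 ± 0.23 on the log2 scale (limma adjusted p = 0.206), and C8b, a pore component, -0.44 ± 0.22 (adjusted p = 0.294).

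In the coagulation list, Serpinc1, antithrombin, had levels of 6.34, 6.33 and 6.50 on corn oil arrays and 6.72, 6.71 and 6.76 on treated arrays, a log2 change of 0.34 ± 0.08 (limma adjusted p = 0.13). S100a10, part of a plasminogen receptor with annexin A2, had 0.43 ± 0.12 (adjusted p = 0.144). F2, prothrombin, had levels of -0.16, 0.33 and 0.17 on corn oil arrays and 0.50, 3.21 and 2.02 on treated arrays. The groups did not overlap, though treated replicate 1 was close to the corn oil arrays, and the log2 change was 1.80 ± 0.64 (adjusted p = 0.191). These were the 3 of 19 tested genes of that list with all treated arrays above all corn oil arrays, 15.8% against 20.1% of all genes.

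In the list of acute phase and interleukin-6 genes, Ahsg, fetuin-A, a plasma protein that falls in the acute phase, had levels of -0.65, -0.41 and -0.60 on corn oil arrays and -1.31, -1.20 and -1.31 on treated arrays. Its log2 change was -0.72 ± 0.095 (limma adjusted p = 0.0799); it is also on the hepatocyte list. Itih3, an inter-alpha-inhibitor heavy chain, had -1.56 ± 0.55 (adjusted p = 0.189). Stat3, the transcription factor that carries the interleukin-6 signal, had -0.205 ± 0.084 (adjusted p = 0.231). Il6, Crp and Orm1 were not well above background on any array; these 3 genes were chosen after their values were seen.

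Markers of blood and immune cells stood beside these values. The 4 erythroid markers with a probe, of 7 listed, summed to 270 to 405 on corn oil and 522 to 861 on treated arrays. The 8 macrophage markers, 7 of them well above background on all arrays and Cd163 on none, summed to 14.8 to 15.8 and 13.4 to 21.1. Neutrophil markers summed to 0.482 to 0.664 and 0.801 to 1.85, with most of the sum from S100a8 and S100a9 (log2 change of S100a9 1.01 ± 0.32, limma adjusted p = 0.167). The other 3 neutrophil markers with a probe did not share this: Csf3r had a log2 change of 0.001 ± 0.24, Cxcr2 was well above background on 2 corn oil arrays and no treated array, and Ngp on none. Fibroblast markers summed to 25.2 to 27.9 and 21.5 to 39.0, platelet markers to 1.57 to 2.29 and 1.97 to 2.61, and T cell markers to 1.24 to 2.42 and 1.25 to 1.43. Their part in the values above was not tested.

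**Figure D5:**
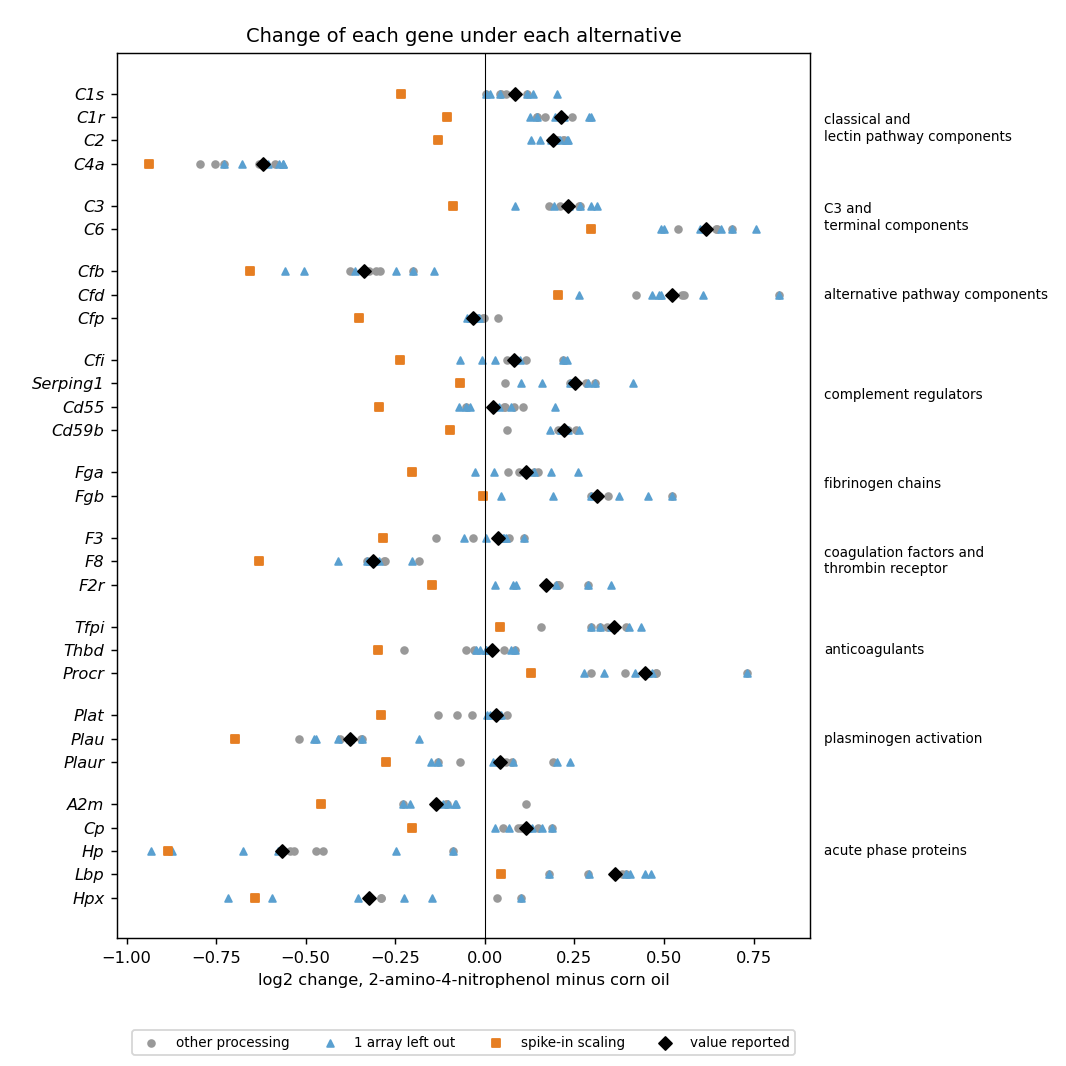
Log2 change of each tested gene (x axis) as reported (black), with 1 array left out (blue triangles), with spike-in scaling (orange squares) and with 10 other alternatives (grey); genes are grouped by role (y axis). C4a, F8 and Plau stay below 0 and C6, Tfpi and Cfd above 0 in all 17, while Thbd, F3 and Plat lie on both sides.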

How the data were processed

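The deposited intensity comes from Agilent Feature Extraction, version 10.7.1.1 per the file headers and 10.7 per the submitters' processing notes; that software subtracted background and detrended the signal, which is on a linear scale. Flags for outliers and for signal well above background are deposited too. In the authors' deposited value table each value is a ratio, the intensity over the 75th percentile of the array. Each of its columns fitted the scanner file of a different replicate within its group (36961 probes), so scanner files set the replicate numbers here.

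Signals were divided by the 75th percentile of their array's non-control probes and put on the log2 scale. The 64 outlier probes were dropped, and a probe needed signal well above background on every array of at least 1 group. Genes were named through RefSeq accessions (GRCr8; 27460 of 61657 probes, 15284 genes); the array's own build is another, so the coordinates given are those of RefSeq's promoter windows and not of probes. limma 3.58.1 (lmFit, eBayes) in R 4.3.3 compared the groups, with Benjamini-Hochberg adjustment over 11748 genes, and was checked on simulated data. Having 3 arrays a group limits precision. Summed marker levels add the linear ratios of each gene's brightest probe.

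All listed genes are named. Values on every array go to those with an unadjusted p under 0.05 or separated groups, then to the largest changes; of other pathway genes, the lowest p of each list are named. The genes and lists were chosen with earlier results of these data known. Alternatives covered background correction (normexp, offset 50, on median signals), scaling (quantile, median, spike-in), the deposited value table, probe filters and probe averaging, blocks for replicate and for slide, trend and robust options, and omission of single arrays.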

Additional observations from a re-analysis of the deposited data

How the results depend on the processing

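In all 17 alternatives 0 of the 29 genes passed the adjusted threshold in limma; the lowest adjusted p was 0.0671, for C4a without treated replicate 1. Normexp correction gave 5 genes higher with an unadjusted p under 0.05 (17.2%, against 18% of all genes). Spike-in scaling gave 0 higher and 4 lower, 0 and 5 with separated groups (0% and 17.2%, against 1.32% and 25.5% of all genes), and a median of -0.234. With the slide block 13.8% of the 29 genes were higher and 1 gene (3.45%) lower at an unadjusted p under 0.05, against 9.57% and 5.45% of all genes. Leaving out single arrays gave 2 to 4 genes higher and 1 to 2 lower with an unadjusted p under 0.05 in limma. These are 6.9% to 13.8% and 3.45% to 6.9% of the 29. Of all genes, 8.5% to 20% were higher and 4.55% to 11% lower by that rule. Groups were separated for 5 to 8 of the 29 genes higher and 3 to 4 lower, and medians were 0.045 to 0.138. In these fits 22.8% to 31.8% of all genes were separated higher and 12.8% to 18.5% lower, and 8 of 29 is 27.6%. The causes were not tested. The sign held in all 17 for 10 genes, turned in spike-in scaling alone for 9, and turned elsewhere for the other 10. Over all genes, the adjusted threshold was passed by 56 with normexp, 9 with spike-in scaling, 69 with trend and robust options, and 0 to 70 with 1 array left out, against 3; it was passed by 0 with no filter, either block or probe averaging. The shares of all genes higher and lower (14.3% and 7.29%) became 8.23% and 9.53% with quantile normalization and 1.01% and 20.6% with spike-in scaling. Same-numbered arrays did not deviate together (r = 0.006, -0.05 and -0.032), and differently numbered ones had r of -0.025 to 0.051. With 3 arrays a group these values cannot show whether the rats were paired. With the replicate number as a block, 0 of the 29 genes passed, and the median was 0.085. With an unadjusted p under 0.05, 3 were higher and 3 lower (10.3% each, against 11.5% and 6.59% of all genes). Signal near background limits Fgg, C5ar2 and the dim probes.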
